A study of Mus musculus with 12 samples.

Results

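Solute carriers are membrane proteins that move nutrients, ions and metals across the cell surface and organelle membranes by facilitated diffusion, exchange or symport. The genes described here are all those in the deposited tables whose symbol consists of Slc, a family number and a letter, with Slc7a11, Slc45a2 and Slc24a5 set aside. There were 119 of them among 7902 genes, and 113 of the 119 were tested among 7638 tested genes. The reference annotation names 372 protein-coding genes by that rule, so the tables covered 32% of the family. By protein family the 119 fell into 115 carriers of 8 classes and 4 genes that share the symbol but encode other proteins (Slc7a6os, Slc4a1ap, Slc9a3r1 and Slc9a3r2).

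Bulk messenger RNA was sequenced from 12 samples of mouse skin in 3 groups of 4. M+NSPCC1 skin came from mice with the ageing model that were given the grape seed extract NSPCC1. Model skin came from mice in which skin ageing was induced with D-galactose, a sugar used to provoke oxidative and glycation damage, together with ultraviolet A and B light. Ctrl skin came from control mice. All 3 groups carry the tissue label skin, while the sources used here give no strain, age, sex, dose, treatment time or body site. Nor do they say whether each sample is a mouse of its own. The p-values therefore speak only to how far these samples vary among themselves, part of which may be technical variation.

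Cells take up amino acids through exchangers and sodium-coupled carriers, glucose through the facilitative Slc2 proteins, and lactate or pyruvate through the Slc16 proteins. Inside the cell the Slc25 proteins link the cytosol with the mitochondrial matrix by carrying ATP, phosphate, aspartate, citrate and iron. Zinc enters the cytosol through Slc39 proteins and leaves it through Slc30 proteins, while iron leaves the cell through ferroportin, the product of Slc40a1. In skin, zinc carriers are known for their part in the epidermis and hair follicle, and a lack of zinc uptake causes dermatitis and hair loss.

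The summed estimated counts ran from 9717338 to 10952623 per library, and since the tables hold part of each library these sums are not its depth. Against Ctrl, 96.8% of 10171 tested transcripts were called in M+NSPCC1, in Model or in both. Every count of changed genes below holds within tables of that kind. In Model against Ctrl, 49.1% of all tested genes rose and 41.4% fell. The groups also differed in the markers of several cell types, given as CPM (counts scaled to the effective size of the library) summed over a list. Skeletal muscle markers summed to 15520 to 23920 CPM in M+NSPCC1, 6742 to 22580 in Model and 117800 to 127300 in Ctrl libraries, and all 27 tested fell in Model. Hair shaft and inner root sheath markers summed to 40450 to 73480 CPM in M+NSPCC1, 61840 to 97040 in Model and 35.32 to 409.6 in Ctrl libraries, and all 32 rose in Model. Fat markers fell in Model for 10 of 11 (1878 to 4264 CPM, against 7020 to 8618 in Ctrl) and macrophage markers for 11 of 11 (1115 to 3074 CPM, against 5599 to 7853 in Ctrl). Markers of cell division rose for 27 of 28 (2342 to 4311 CPM in Model, against 771.1 to 933.7 in Ctrl) and those of melanocytes for 11 of 11. No listed marker was at 0 in a whole group, and the 6 epidermal markers in the tables summed to at least 5876 CPM in every library, and the label skin was not in conflict with them. Of those 6 markers 4 rose and 2 (Krt10 and Krt77) fell in Model. Endothelial markers fell for 12 of 12, fibroblast markers for 11 of 11, nerve and Schwann cell markers for 10 of 12 with 1 that rose, and sebaceous gland markers for 4 of 6 with 2 that rose. In bulk RNA, fewer cells of a type and less RNA per cell cannot be told apart. Model library 3 stood apart from its group, with 61840 CPM of hair markers (80420 to 97040 in the other Model libraries) and the most muscle, fibroblast and macrophage markers. Without it 106 carriers were called in Model against Ctrl, 0 in M+NSPCC1 against Model and 110 in M+NSPCC1 against Ctrl, and the class medians in Model against Ctrl were 1.51 for metal, -1.78 for sugar, -1.19 for mitochondrial and -1.21 for ion carriers. The part of these shifts in cell types in the carrier results below was not tested.

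The first comparison asked what the ageing model did to carrier expression. Of the 113 carriers and namesakes tested, 46 rose and 57 fell in Model skin, and 10 did not pass (edgeR, quasi-likelihood, Benjamini-Hochberg adjusted p under 0.05). That is 91.2% called, where 90.5% of all tested genes were called, a share near the background. The libraries of the 2 groups did not overlap for 103 carriers, where 83.1% of all tested genes did not overlap. Of all tested genes 49.1% rose and 41.4% fell, against 40.7% and 50.4% of the carriers. The median log2 fold change was -0.681 over the 113 and 0.255 over all tested genes, and the median absolute log2 fold change 1.54 and 1.1. Another scaling moves both medians together, to -0.851 and 0.083 by DESeq2's size factors and to -0.504 and 0.432 by the relative depth of whole libraries. In CPM the total of the 119 genes in the tables, 32% of the family, did not move much. They summed to 11370 ± 325 CPM in M+NSPCC1, 11840 ± 681 in Model and 11390 ± 246 in Ctrl libraries (SD, n = 4 each). Per length the total was lower with the ageing model, at 3178 ± 67.2 FPKM in M+NSPCC1, 3139 ± 154 in Model and 3538 ± 80.3 in Ctrl libraries. Both totals count identical rows of a gene each time, which raises the CPM of Ctrl more than that of Model. Which carriers made up the total also changed.

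**Figure D1:**
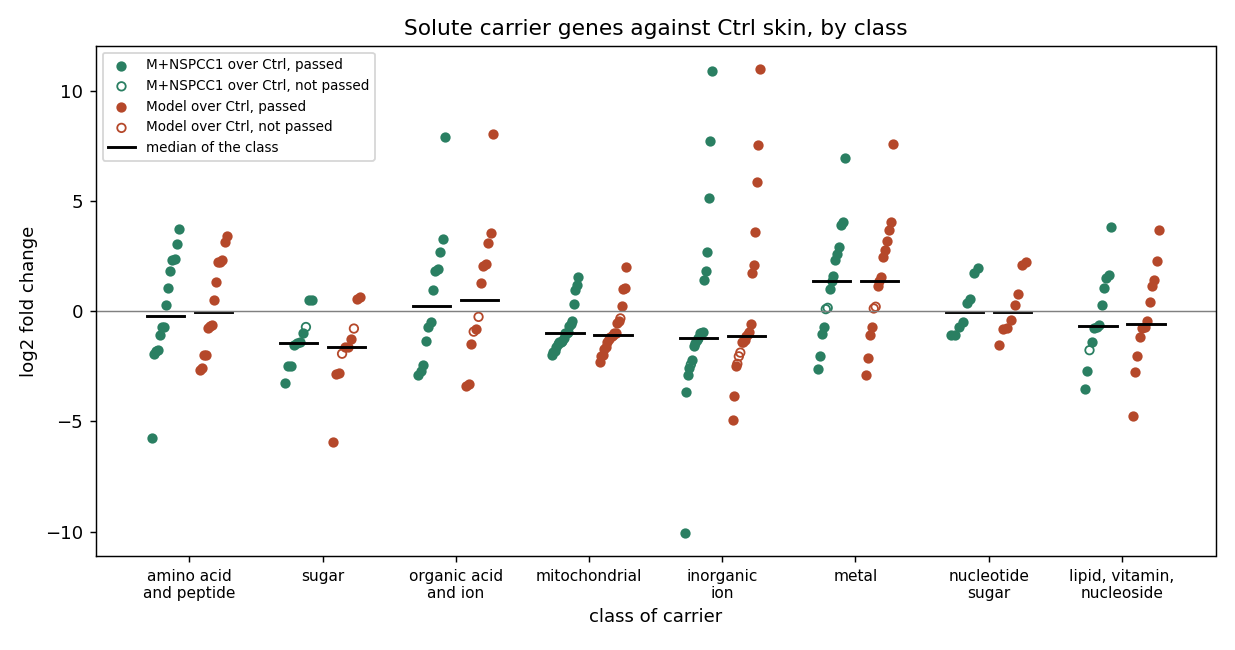
Log2 fold change against Ctrl (vertical axis) of each tested solute carrier gene, grouped by class of carrier (horizontal axis), in M+NSPCC1 (green) and Model (red) skin. Filled points passed, open points did not, and black lines are class medians. The metal class lies mostly above 0 (median 1.37 in Model) and the mitochondrial and sugar classes mostly below (-1.08 and -1.62). The points for genes at 0 in a whole group (Slc13a5, Slc24a4, Slc26a3 and Slc30a3 in Ctrl, Slc8a1 in M+NSPCC1) are fitted values that depend on the prior count.

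Metal carriers had the highest class median of the 8 in both comparisons with Ctrl. In Model skin 9 of the 15 tested rose (where 49.1% of all tested genes rose), 4 fell and 2 did not pass, with a median log2 fold change of 1.37. Their summed level was 3285 ± 384 CPM in M+NSPCC1, 3338 ± 491 in Model and 1076 ± 19.3 in Ctrl libraries (SD, n = 4 each). With identical rows of a gene counted once it was 3108, 3139 and 1037 CPM in the same order of groups. The genes with the most added counts carry zinc or iron.

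Slc39a10 (chromosome 1, 46807544 to 46925776) encodes ZIP10, a zinc importer of the cell surface. It had 721, 1038, 1151 and 1047 CPM in the M+NSPCC1 libraries, 964, 959, 538 and 987 CPM in the Model libraries and 65.8, 64.6, 66.1 and 68.7 CPM in the Ctrl libraries. Every M+NSPCC1 and Model library lay above every Ctrl library, and the third Model library was the lowest of its group. Its log2 fold change was 3.70 in Model over Ctrl (SE 0.21, edgeR adjusted p = 7.31e-08) and 3.90 in M+NSPCC1 over Ctrl (SE 0.21).

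Slc39a8 (chromosome 3, 135816882 to 135888572) encodes ZIP8, which imports zinc and manganese and can also carry iron. It had 267, 359, 358 and 361 CPM in M+NSPCC1, 405, 371, 282 and 325 CPM in Model and 23.3, 19.3, 15.2 and 24.8 CPM in Ctrl libraries. It showed the largest rise of the class among genes with at least 5 CPM, with a log2 fold change of 4.06 in Model over Ctrl (SE 0.18, edgeR adjusted p = 2.17e-08) and 4.02 in M+NSPCC1 over Ctrl. Slc39a6, which encodes ZIP6, the close relative and partner of ZIP10, averaged 403 ± 56.4 CPM in M+NSPCC1, 452 ± 82.5 in Model and 66.1 ± 3.04 in Ctrl libraries (SD, n = 4 each; log2 fold change 2.77 in Model over Ctrl). Slc39a14, whose product ZIP14 imports zinc, iron and manganese, rose by 1.37 and Slc39a2 by 1.54 on the log2 scale. Slc39a13 fell, with a log2 fold change of -1.09. ZIP13 acts inside the cell and is known for its need in connective tissue, and the 11 tested fibroblast markers also fell in Model.

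Of the 3 zinc carriers of the Slc30 family tested, 2 rose and 1 did not pass, where 49.1% of all tested genes rose. Slc30a1 (chromosome 1, 191906697 to 191913248) encodes ZnT1, the exporter of the plasma membrane. It had 316, 526, 499 and 504 CPM in M+NSPCC1, 513, 584, 290.3 and 613 CPM in Model and 92.8, 93.5, 82.4 and 94.8 CPM in Ctrl libraries, a log2 fold change of 2.46 in Model over Ctrl (SE 0.23, edgeR adjusted p = 2.06e-06). The tables hold 1 transcript of this gene a second time with the same values, and counted once Slc30a1 averaged 284.4 CPM in M+NSPCC1, 301.8 in Model and 52.34 in Ctrl libraries, with a log2 fold change of 2.53 in Model over Ctrl. The groups with the ageing model did not overlap Ctrl. M+NSPCC1 library 1 and Model library 3 were the lowest of their groups. Slc30a7, whose product loads zinc into the early secretory pathway, had a log2 fold change of 0.12 (SE 0.07) that did not pass, although it did with whole-library depth as the scaling and by limma. Slc30a3, which encodes the zinc transporter of vesicles, had no count in any Ctrl library. Its mean was 18 times a floor of 3 counts over the Ctrl group in M+NSPCC1 and 28.1 times it in Model skin. These ratios leave out the spread between libraries.

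Slc30a1 is a known target of the zinc-sensing factor MTF1, which binds the metal response element (TGCACNC or TGCGCNC on either strand). This element was searched in the 250 bases before the start of each gene in RefSeq's promoter table (GRCm38.p6), which held 88 of the 119 genes. It was present for 4 of 11 metal carriers (36.4%), 22 of all 88 members (25.0%) and 21.3% of 27025 promoters. The matches of the 4 metal carriers are shown as 30 bases each, 5′ to 3′ in the direction of the gene with the element in capitals, because they sit before genes that did not move alike: Slc30a1 and Slc30a3 rose, Slc41a1 did not pass by edgeR and Slc41a3 fell.
Slc30a1, chr1:191906727-191906756, plus strand: acgggggttccGAGTGCAaagcaaagtttt
Slc30a3, chr5:31108303-31108332, minus strand: gaaactgcgctTGCGCACtttgtaggggac
Slc41a1, chr1:131827770-131827799, plus strand: tgggaactcagGAGCGCAgcacccgcccgc
Slc41a3, chr6:90619025-90619054, plus strand: gcccatggcacGTGTGCAgaggacacagag
The capitals begin 43, 77, 231 and 210 bases before the start that the table gives for Slc30a1, Slc30a3, Slc41a1 and Slc41a3. For Slc30a1 and Slc41a3 that start lies inside the annotated gene, and the match of Slc41a3 overlaps an E-box (CANNTG). These matches describe letters only.

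Slc40a1 and Slc25a37, which carry iron, also rose. Slc40a1 (chromosome 1, 45908070 to 45926532), which encodes the iron exporter ferroportin, had 202, 274, 323 and 295 CPM in M+NSPCC1, 278, 341, 372 and 338 CPM in Model and 44.2, 33.4, 38.9 and 29.6 CPM in Ctrl libraries. Ferroportin stood at 3.19 on the log2 scale in Model over Ctrl (SE 0.17, edgeR adjusted p = 5.66e-08). Slc25a37 (chromosome 14, 69241848 to 69285544), counted with the mitochondrial class, encodes mitoferrin 1, which brings iron into mitochondria for haem and iron-sulphur clusters. It had 165, 228, 251 and 218 CPM in M+NSPCC1, 287, 331, 247 and 326 CPM in Model and 77.4, 72.3, 75 and 68.5 CPM in Ctrl libraries, and a log2 fold change of 2.02 in Model over Ctrl (SE 0.13, edgeR adjusted p = 1.78e-07). The copper importer Slc31a1 rose by 1.13 on the log2 scale.

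The 4 metal carriers that fell included Slc11a1, which encodes an iron and manganese carrier of the macrophage phagosome. It averaged 5.11 ± 3.14 CPM in M+NSPCC1, 4.78 ± 3.96 in Model and 21.1 ± 7.77 in Ctrl libraries (SD, n = 4 each), with a log2 fold change of -2.14 in Model over Ctrl (SE 0.55) and -2.90 without the third Model library. Macrophage markers were also highest in that library, at 3074 CPM against at most 1503 in the other Model libraries. Slc41a3, a magnesium carrier of mitochondria, fell with a log2 fold change of -2.90 (SE 0.23), and Slc48a1, which moves haem out of endosomes and lysosomes, with -0.73. Slc41a1, the magnesium carrier of the cell surface, averaged 149 CPM in Model and 129 in Ctrl libraries and did not pass, although it did with whole-library depth, by limma, and without Model library 3 or M+NSPCC1 library 1.

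**Figure D2:**
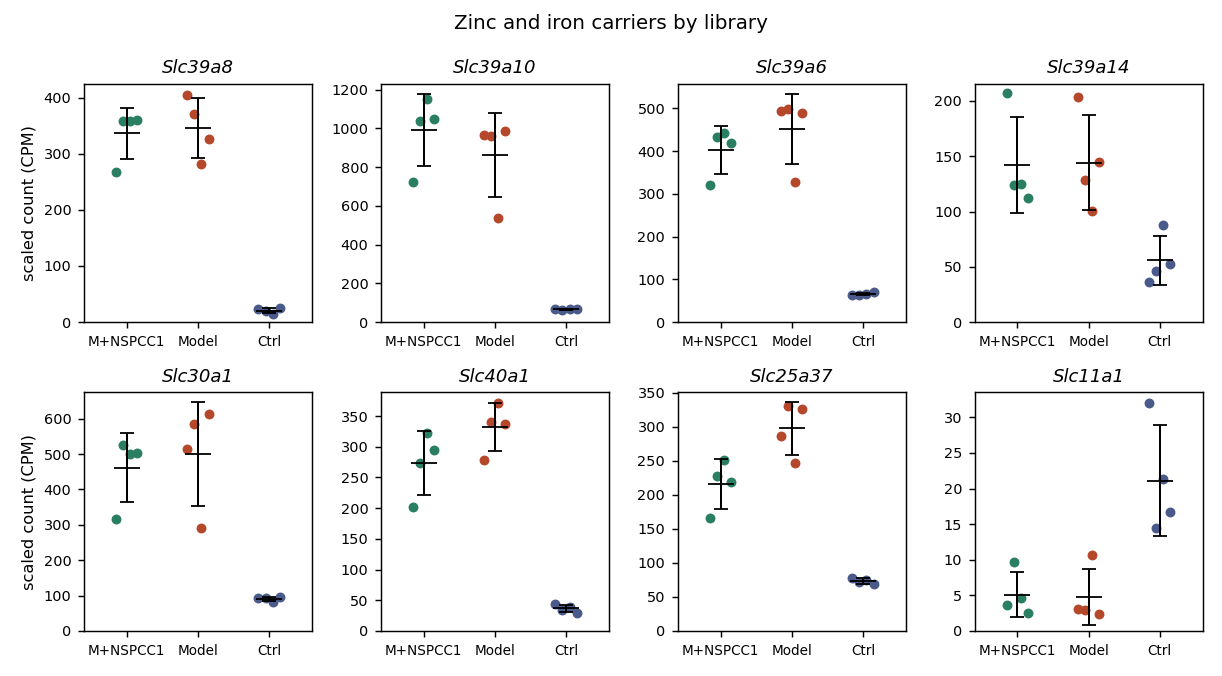
Scaled counts (CPM, vertical axis, from 0) of 8 zinc and iron carriers in the 4 libraries each of M+NSPCC1, Model and Ctrl skin (horizontal axis). Points are libraries, and bars are the mean and SD. All but Slc11a1 are higher in M+NSPCC1 and Model than in Ctrl with no overlap, and Slc11a1 is lower.

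Amino acid carriers split evenly: 7 of the 14 tested rose and 7 fell in Model skin, where 49.1% of all tested genes rose and 41.4% fell. The class median of -0.05 changed sign with the scaling (-0.23 by DESeq2's size factors, 0.12 by whole-library depth). The class sum was higher with the ageing model, at 1786 ± 88.9 CPM in M+NSPCC1, 2005 ± 225 in Model and 1055 ± 65.1 in Ctrl libraries (SD, n = 4 each). The carriers that rose included both subunits of the large neutral amino acid exchangers.

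In these exchangers a light chain, LAT1 (Slc7a5) or LAT2 (Slc7a8), which carries the amino acid, is bound to the heavy chain 4F2hc (Slc3a2), which takes it to the membrane. Slc7a8 (chromosome 14, 54722215 to 54781886) had 256, 329, 358 and 335 CPM in M+NSPCC1, 386, 397, 369 and 478 CPM in Model and 41.6, 36.2, 49 and 27.6 CPM in Ctrl libraries. LAT2 stood at 3.40 on the log2 scale in Model over Ctrl (SE 0.18, edgeR adjusted p = 5.01e-08). In CPM every Model library also lay above every M+NSPCC1 library, while in FPKM these groups overlapped.

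Slc7a5 (chromosome 8, 121881146 to 121907686) had 237, 187, 188 and 215 CPM in M+NSPCC1, 190.3, 232, 111 and 233 CPM in Model and 32.6, 39.4, 48.7 and 45 CPM in Ctrl libraries (log2 fold change in Model over Ctrl 2.21, SE 0.22, edgeR adjusted p = 3.27e-06). Slc3a2 (chromosome 19, 8706882 to 8723369) had 401, 370.3, 404 and 383 CPM in M+NSPCC1, 458, 488, 404 and 512 CPM in Model and 173, 187, 198 and 184 CPM in Ctrl libraries (log2 fold change 1.33, SE 0.08, edgeR adjusted p = 1.15e-07). The heavy chain thus changed less than either light chain. Per length, the FPKM of Slc3a2 was 117 ± 5.35 in M+NSPCC1, 134 ± 12.1 in Model and 47.4 ± 1.42 in Ctrl libraries, above Slc7a8 with 62.1 ± 9.04, 76.1 ± 9.25 and 6.62 ± 1.52 FPKM in the same order of groups (SD, n = 4 each).

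Slc7a1, which encodes the carrier of arginine and lysine CAT1, averaged 215 ± 18.2 CPM in M+NSPCC1, 195 ± 53.5 in Model and 41.3 ± 7.64 in Ctrl libraries (SD, n = 4 each), a log2 fold change of 2.24 in Model over Ctrl. Slc6a19, known as the sodium-coupled neutral amino acid carrier of gut and kidney, averaged 30.3 ± 7.3 CPM in M+NSPCC1, 43.1 ± 15.7 in Model and 8.5 ± 1.63 in Ctrl libraries (SD, n = 4 each; log2 fold change 2.34, SE 0.27). Slc38a2, the glutamine and alanine carrier SNAT2, rose by 0.52 on the log2 scale (SE 0.13, edgeR adjusted p = 0.00256). Slc6a15 rose from few counts, and its call was lost without any one of 5 libraries (Ctrl 1, 2 or 3, Model 2 or 4).

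Of the amino acid carriers that fell, Slc36a2, a proton-coupled carrier of proline and glycine, averaged 25 ± 5.08 CPM in M+NSPCC1, 22.2 ± 10.4 in Model and 87.9 ± 10.9 in Ctrl libraries (SD, n = 4 each; log2 fold change -1.99, SE 0.27). Slc38a4, the neutral amino acid carrier SNAT4, averaged 24.1 ± 5.36 CPM in M+NSPCC1, 20.9 ± 6.68 in Model and 82.1 ± 11.5 in Ctrl libraries (SD, n = 4 each; log2 fold change -1.97, SE 0.22). The aromatic amino acid carrier Slc16a10 and the glycine carrier Slc6a9 fell by less, with log2 fold changes of -0.78 and -0.68.

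The amino acid response element (TGATGCAA on either strand), which the stress factor ATF4 binds, was found in none of the 88 promoters of the family and in 0.818% of all promoters. With so low a share, none among 88 does not set the family apart. Among partners and regulators of carriers, Sesn2 and Sesn3, sensors in amino acid signalling, rose by 0.94 and 1.75 on the log2 scale, Mtor by 0.39 and Castor1 by 0.51. Rragd, a GTPase of the same pathway, had a log2 fold change of -3.67, and Ddit3, a stress factor, of -1.12. Of the 18 partners and regulators tested, 7 rose, 8 fell and 3 did not pass, where 49.1% of all tested genes rose and 41.4% fell.

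**Figure D3:**
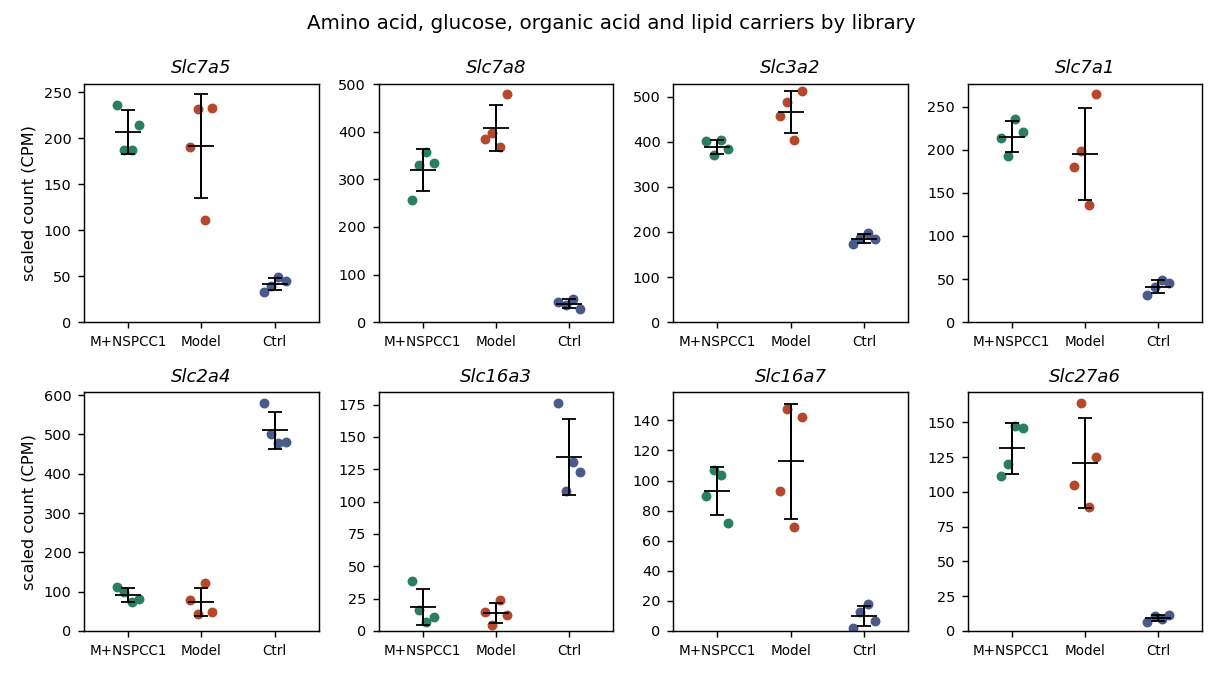
Scaled counts (CPM, vertical axis, from 0) of 8 amino acid, glucose, organic acid and lipid carriers in the 4 libraries each of M+NSPCC1, Model and Ctrl skin (horizontal axis). Points are libraries, and bars are the mean and SD. Slc2a4 and Slc16a3 are lower in M+NSPCC1 and Model than in Ctrl, and the other 6 are higher, with no overlap with Ctrl.

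Of the 10 sugar carriers tested, 6 fell in Model skin (where 41.4% of all tested genes fell), 2 rose and 2 did not pass, with a median log2 fold change of -1.62. The class summed to 227.6 ± 20.2 CPM in M+NSPCC1, 219.9 ± 35.4 in Model and 719.2 ± 49.8 in Ctrl libraries (SD, n = 4 each). In Ctrl skin most of that sum was Slc2a4 (chromosome 11, 69942286 to 69948216), which encodes GLUT4, the insulin-regulated glucose carrier of muscle and fat. It had 112, 97.9, 73.1 and 81 CPM in M+NSPCC1, 78.4, 43.8, 122 and 48.1 CPM in Model and 580, 502, 478 and 482 CPM in Ctrl libraries. The tables hold 2 transcripts of this gene a second time with the same values. Counted once, Slc2a4 averaged 55.13 CPM in M+NSPCC1, 42.52 in Model and 301.9 in Ctrl libraries, and the class summed to 191.6, 189.4 and 510.8 CPM in the same order of groups. On the log2 scale GLUT4 stood at -2.81 in Model over Ctrl (SE 0.29, edgeR adjusted p = 4.85e-06). The third Model library had the most of its group, as it had for skeletal muscle markers (22580 CPM, against 6742 to 17850 in the other Model libraries). Tbc1d4, which holds GLUT4 vesicles back until insulin acts, had a log2 fold change of -1.68.

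Slc2a5, the fructose carrier GLUT5, averaged 2.71 ± 0.55 CPM in M+NSPCC1, 3.64 ± 1.76 in Model and 26.5 ± 6.19 in Ctrl libraries (SD, n = 4 each; log2 fold change -2.86, SE 0.32). Slc2a12, Slc2a10 and Slc2a6, lesser members of the glucose carrier family, had log2 fold changes of -1.25, -1.62 and -1.61. Slc37a4, which brings glucose 6-phosphate into the endoplasmic reticulum, had 0, 0, 0 and 1.3 CPM in Model and 27.3, 21, 16.6 and 18 CPM in Ctrl libraries, and 1 Model library held all the counts of its group. Model over Ctrl gave -5.92 on the log2 scale for Slc37a4 (SE 1.01) and -10.72 without the fourth Model library, a fitted value that depends on the prior count. Its relatives Slc37a3 and Slc37a2 rose by 0.66 and 0.53 on the log2 scale, and the call of Slc37a2 was lost with DESeq2's size factors.

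Organic acid and organic ion carriers went both ways: 6 of the 12 tested rose, 4 fell and 2 did not pass in Model skin, with a median log2 fold change of 0.50. Among all tested genes 49.1% rose and 41.4% fell. A pair of monocarboxylate carriers moved far in opposite directions. Slc16a3 (chromosome 11, 120948484 to 120959000) encodes MCT4, which exports lactate from glycolytic cells. It had 38.3, 15.8, 7.2 and 11.1 CPM in M+NSPCC1, 14.9, 4.45, 23.6 and 12 CPM in Model and 176, 108, 131 and 123 CPM in Ctrl libraries (log2 fold change in Model over Ctrl -3.29, SE 0.55, edgeR adjusted p = 0.000159).

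Slc16a7 (chromosome 10, 125219270 to 125389586) encodes MCT2, a high-affinity carrier of pyruvate and lactate. It had 89.8, 107, 104 and 71.9 CPM in M+NSPCC1, 92.8, 147, 68.9 and 142 CPM in Model and 2.21, 12.6, 17.6 and 6.58 CPM in Ctrl libraries (log2 fold change 3.53, SE 0.47, edgeR adjusted p = 3.27e-05). The groups with the ageing model lay wholly above Ctrl for Slc16a7 and wholly below it for Slc16a3. Bsg, the chaperone of MCT4 at the membrane, had a log2 fold change of -0.59.

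Slc16a6 and Slc5a8, a sodium-coupled carrier of lactate and short-chain fatty acids, rose by 2.14 and 2.04 on the log2 scale. Slc13a5, the citrate carrier, had no count in any Ctrl library. Its mean was 35.7 times a floor of 3 counts over the Ctrl group in M+NSPCC1 and 39.1 times it in Model skin. Slc47a1, which exports organic cations, had 2.29, 2.5, 1.46 and 1.6 CPM in M+NSPCC1, 1.71, 0.278, 0.595 and 2.24 in Model and 14.1, 12.7, 7.19 and 17.5 in Ctrl libraries (log2 fold change -3.40, SE 0.55).

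Mitochondrial carriers formed the most abundant class among the carriers in the tables. Of the 19 tested, 14 fell, 4 rose and 1 did not pass in Model skin, with a median log2 fold change of -1.08. The class summed to 3731 ± 102 CPM in M+NSPCC1, 3667 ± 144 in Model and 6466 ± 236 in Ctrl libraries (SD, n = 4 each). With identical rows of a gene counted once it summed to 3561, 3512 and 5961 CPM in the same order of groups. Among all tested genes 41.4% fell. Slc25a4, the most abundant of the class in Ctrl skin, fell the most.

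Slc25a4 and Slc25a5 encode ANT1 and ANT2, the adenine nucleotide translocases that exchange ATP for ADP across the inner membrane. ANT1 is known as the form of heart and skeletal muscle and ANT2 as that of dividing cells. The 250 bases before their annotated starts are shown, 5′ to 3′ in the direction of the gene with each E-box (CANNTG, the core of sites bound by muscle and other basic helix-loop-helix factors) in capitals, since these 2 genes of the same function moved in opposite directions.
Slc25a4, chr8:46211063-46211312, minus strand: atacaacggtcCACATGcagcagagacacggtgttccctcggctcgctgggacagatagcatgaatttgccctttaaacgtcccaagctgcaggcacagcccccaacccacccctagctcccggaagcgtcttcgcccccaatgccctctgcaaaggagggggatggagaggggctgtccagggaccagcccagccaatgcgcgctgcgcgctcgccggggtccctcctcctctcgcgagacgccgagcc
Slc25a5, chrX:36795347-36795596, plus strand: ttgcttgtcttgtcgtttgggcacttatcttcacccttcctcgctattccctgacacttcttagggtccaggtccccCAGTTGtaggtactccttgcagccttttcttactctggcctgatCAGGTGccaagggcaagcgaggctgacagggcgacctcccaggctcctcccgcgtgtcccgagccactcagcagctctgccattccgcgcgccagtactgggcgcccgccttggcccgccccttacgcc
The window of Slc25a4 held 1 E-box and that of Slc25a5 held 2. An E-box was present in 13 of 15 promoters of mitochondrial carriers (86.7%), 55 of 88 of the family (62.5%) and 66% of all promoters, so its letters are common and do not tell the pair apart. The site of nuclear respiratory factor 1 was in none of the 88 and in 0.781% of all promoters.

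Slc25a4 (chromosome 8, 46207168 to 46211062) had 645, 622, 492 and 535 CPM in M+NSPCC1, 510.2, 337, 633 and 360.3 CPM in Model and 2301, 2397, 2395 and 2101 CPM in Ctrl libraries. Model over Ctrl gave a log2 fold change of -2.32 (SE 0.19, edgeR adjusted p = 7.9e-07). The Model libraries spread widely, with the third library the highest, and stayed below every Ctrl library.

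Slc25a5 (chromosome X, 36795597 to 36798808) had 1020, 1079, 1138 and 1066 CPM in M+NSPCC1, 1121, 1198, 963 and 1118 CPM in Model and 498, 502, 622 and 572 CPM in Ctrl libraries. Model over Ctrl gave 1.0 on the log2 scale (SE 0.10, edgeR adjusted p = 2.58e-06). Per length, Slc25a5 had more FPKM than Slc25a4 in M+NSPCC1 skin (665 ± 43.1 and 341 ± 37) and in Model skin (664 ± 72.4 and 266 ± 75), and less in Ctrl skin (292 ± 29.3 and 1180 ± 58.1; SD, n = 4 each). The order of the pair was the same in every library of a group. The deposited counts of both genes were whole numbers in every library, to within 0.011 per row.

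Slc25a3 (chromosome 10, 91116574 to 91124046) encodes the phosphate carrier that feeds ATP synthesis, and is known to be made in a muscle form and a widespread form by alternative splicing. Summed over the gene it fell modestly, with a log2 fold change of -0.45 in Model over Ctrl (SE 0.07, edgeR adjusted p = 0.000167). The tables hold it as 2 transcripts, which carry no transcript name. The first had 340.1, 335, 335 and 331 FPKM in M+NSPCC1, 362, 372, 289 and 337 in Model and 211, 186, 220.3 and 197 in Ctrl libraries, and rose (0.59 on the log2 scale, adjusted p = 7.94e-05 by edgeR over all transcripts). The second had 99.6, 84.1, 60.0 and 79.6 FPKM in M+NSPCC1, 80.0, 37.2, 81.4 and 40.4 in Model and 309, 323, 286 and 299 in Ctrl libraries, and fell (log2 fold change -2.49, adjusted p = 9.51e-06 by edgeR over all transcripts). Skeletal muscle markers fell in the same libraries as Slc25a4 and this second transcript.

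**Figure D4:**
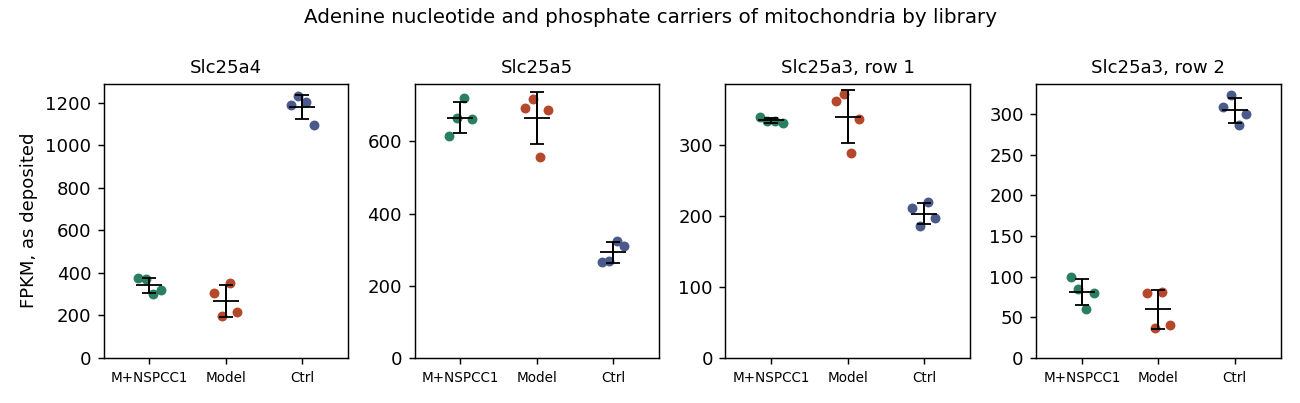
Deposited FPKM (vertical axis, from 0) of Slc25a4, Slc25a5 and the 2 transcripts of Slc25a3 in the 4 libraries each of M+NSPCC1, Model and Ctrl skin (horizontal axis). Points are libraries, and bars are the mean and SD. Slc25a4 and the second Slc25a3 transcript are highest in Ctrl, and Slc25a5 and the first Slc25a3 transcript are lowest there.

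The aspartate and glutamate carriers of the malate-aspartate shuttle also moved apart. Slc25a12 averaged 87.7 ± 7.7 CPM in M+NSPCC1, 77.7 ± 18.7 in Model and 319 ± 28.9 in Ctrl libraries (SD, n = 4 each; log2 fold change -2.04, SE 0.16). Slc25a13, its paralog citrin, averaged 26.7 ± 4.79 CPM in M+NSPCC1, 24.4 ± 4.48 in Model and 11.7 ± 1.72 in Ctrl libraries (SD, n = 4 each; log2 fold change 1.07, SE 0.18). Slc25a11, the malate and oxoglutarate carrier of the same shuttle, had a log2 fold change of -1.01.

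Slc25a1, which exports citrate for fatty acid synthesis, averaged 227 ± 30.6 CPM in M+NSPCC1, 198 ± 45 in Model and 788 ± 137 in Ctrl libraries (SD, n = 4 each), a log2 fold change of -1.99. Its only 2 rows hold the same values, so the level of 1 of them is 113.4, 98.95 and 393.9 CPM in the same order. The dicarboxylate carrier Slc25a10 and the glutamate carrier Slc25a22 had log2 fold changes of -1.11 and -1.26. The 3 ATP-magnesium and phosphate carriers Slc25a23, Slc25a24 and Slc25a25 had -1.62, -0.54 and -1.73. Among carriers with other symbols, the pyruvate carrier subunits Mpc1 and Mpc2 had log2 fold changes of -1.64 and -1.79 and the calcium channel Mcu of -1.56, while Ucp2, an uncoupling protein of the same fold as the Slc25 proteins, had 1550 ± 39.9 CPM in M+NSPCC1, 1740 ± 223 in Model and 634 ± 47.5 in Ctrl libraries (SD, n = 4 each).

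Of the 19 inorganic ion carriers tested, 6 rose, 10 fell (where 41.4% of all tested genes fell) and 3 did not pass in Model skin, with a median log2 fold change of -1.13. The class summed to 405.3 ± 27.3 CPM in M+NSPCC1, 530.6 ± 18.8 in Model and 552.3 ± 21.3 in Ctrl libraries (SD, n = 4 each). Per length the sums were 61.5 ± 6.56 FPKM in M+NSPCC1, 80.16 ± 7.13 in Model and 61.85 ± 2.64 in Ctrl libraries, so the summed level of the class was not lower in Model than in Ctrl on that scale. Slc24a4, which exchanges sodium for calcium and potassium, had no count in any Ctrl library. It had 16.7, 23.1, 25.8 and 27 CPM in M+NSPCC1 and 24.6, 31.7, 11.1 and 30.7 CPM in Model libraries. The group means were 283 and 300.0 times a floor of 3 counts over the Ctrl group. These ratios leave out the spread between libraries.

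Slc4a1, the anion exchanger known as band 3 of red blood cells, averaged 10.8 ± 2.53 CPM in M+NSPCC1, 18 ± 4.67 in Model and 0.297 ± 0.22 in Ctrl libraries (SD, n = 4 each; log2 fold change 5.86, SE 0.43). The sodium phosphate carriers Slc20a2 and Slc34a2 rose by 3.60 and 2.07 on the log2 scale. Slc26a3, an anion exchanger known from the gut, had no count in any Ctrl library. Its mean was 31.4 times a floor of 3 counts over the Ctrl group in M+NSPCC1 and 27.4 times it in Model skin.

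Among those that fell, Slc12a2, the sodium, potassium and chloride carrier NKCC1, averaged 64.7 ± 16.7 CPM in M+NSPCC1, 62.9 ± 13.9 in Model and 128 ± 11.6 in Ctrl libraries (SD, n = 4 each; log2 fold change -1.02, SE 0.19). The potassium and chloride carriers Slc12a5 and Slc12a7 had log2 fold changes of -2.50 and -0.95. Slc8a3, a sodium and calcium exchanger of muscle and neurons, had 2.66, 3.06, 3.19 and 2.22 CPM in M+NSPCC1, 2.18, 0, 0.695 and 1.77 CPM in Model and 13.9, 17.9, 21.2 and 13.7 CPM in Ctrl libraries (log2 fold change -3.83, SE 0.67). All 8 libraries with the ageing model lay below every Ctrl library. Slc26a6, an anion exchanger, Slc4a4, a sodium and bicarbonate carrier, and Slc24a3, a sodium, calcium and potassium exchanger, had log2 fold changes of -1.13, -1.42 and -1.40.

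The pumps that build the gradients these carriers use went both ways. Of 20 tested, 8 rose, 10 fell and 2 did not pass in Model skin, where 49.1% of all tested genes rose and 41.4% fell. The sodium pump subunit Atp1b2 had a log2 fold change of -3.48. Wnk1 and Wnk4, kinases that regulate the Slc12 carriers, had -0.76 and 2.22.

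Nucleotide sugar carriers of the Golgi and endoplasmic reticulum and their relatives split 4 to 4 of 8 tested, where 49.1% of all tested genes rose and 41.4% fell. The class median of -0.05 changed sign with the scaling (-0.22 by DESeq2's size factors, 0.12 by whole-library depth). Slc35f2 and Slc35g1, whose natural substrates are not settled, rose by 2.21 (2.92 without the third Ctrl library) and 2.08 on the log2 scale. Slc35f1 and Slc35c2 had log2 fold changes of -1.54 and -0.82. The class summed to 364.3 CPM on average in M+NSPCC1, 394.2 in Model and 320.2 in Ctrl libraries.

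Of 12 tested carriers of lipids, vitamins, nucleosides and small solutes 5 rose and 7 fell in Model skin, with a median log2 fold change of -0.60. Among all tested genes 49.1% rose and 41.4% fell. Slc27a6, a fatty acid transport protein, had 111, 120.2, 147 and 146 CPM in M+NSPCC1, 105, 164, 89.2 and 125 CPM in Model and 6.53, 10.6, 8.59 and 11.6 CPM in Ctrl libraries (log2 fold change 3.70, SE 0.23, edgeR adjusted p = 1.16e-07). The choline carriers Slc44a1 and Slc44a2 rose by 1.14 and 0.42 on the log2 scale, and Slc44a3 had a log2 fold change of -1.17. Slc23a3 rose by 2.26 on the log2 scale. The thiamine carrier Slc19a2, the folate carrier Slc46a1 and the purine nucleoside carrier Slc28a2 fell, with log2 fold changes of -0.74, -0.76 and -4.74.

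Slc29a1, the nucleoside carrier ENT1, averaged 99.9 ± 15.5 CPM in M+NSPCC1, 114 ± 19.5 in Model and 156 ± 13.7 in Ctrl libraries (SD, n = 4 each; log2 fold change -0.46, SE 0.14), a call that was lost with whole-library depth and by limma. The urea carrier Slc14a1 had 0.642, 4.36, 2.46 and 3.2 CPM in M+NSPCC1, 0, 0.927, 4.46 and 0 CPM in Model and 14.3, 8.84, 5.8 and 7.55 CPM in Ctrl libraries. Its fall in Model (log2 fold change -2.76, SE 1.09) became -4.82 without the third Model library, and the call was lost without Ctrl 1, Ctrl 2 or Model 2.

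At the level of transcripts, 71 of 157 tested transcripts of the family rose and 72 fell in Model skin, where 49.1% of all tested transcripts rose and 41.9% fell. Transcripts of the same gene moved in opposite directions in Slc25a3, Slc25a25, Slc29a1, Slc44a1 and Slc44a2. The share of all genes that do so was not worked out, so these genes are not set against a background. In Slc44a1 the more abundant transcript rose (1.55 on the log2 scale) and the lesser fell (-0.71), and likewise in Slc44a2 (0.85 and -1.17). In Slc25a25 the transcript with the most FPKM in Ctrl fell (-2.37) and a lesser one rose (0.72). In Slc29a1 the transcript that rose had at most 2.01 FPKM in Model and 0 in Ctrl libraries. It was also at 0 in Model libraries 2 and 3 and passed narrowly (adjusted p = 0.0491 by edgeR over all transcripts).

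Of the namesakes that are not carriers, Slc9a3r1, a scaffold protein of cell membranes, and Slc4a1ap and Slc7a6os rose by 1.13, 0.64 and 0.42 on the log2 scale, and Slc9a3r2, a related scaffold known from endothelium, had a log2 fold change of -1.59. Of 24 tested solute carriers with other symbols 8 rose and 16 fell, where 49.1% of all tested genes rose and 41.4% fell. Slco4a1, an organic anion transporter, and Mfsd2a, a carrier of lysophospholipids, rose by 2.58 and 1.90 on the log2 scale. Slco2b1 had a log2 fold change of -1.85.

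Among the carriers in the tables, compared per length with identical rows of a gene counted once, the order of levels differed between the groups. In M+NSPCC1 skin the highest 5 by FPKM were Slc25a5 (665 ± 43.1), Slc25a3 (416 ± 18.7), Slc25a4 (341 ± 37), Slc39a10 (127 ± 24.7) and Slc3a2 (117 ± 5.35; SD, n = 4 each). In Model skin they were Slc25a5 (664 ± 72.4), Slc25a3 (400 ± 33), Slc25a4 (266 ± 75), Slc3a2 (134 ± 12.1) and Slc39a10 (108 ± 29). In Ctrl skin they were Slc25a4 (1180 ± 58.1), Slc25a3 (508 ± 9.4), Slc25a5 (292 ± 29.3), Slc25a1 (151 ± 27.3) and Slc2a4 (64.7 ± 4.91). In every Model library Slc3a2 lay above Slc39a10, although their ranges overlapped. The order of Slc39a10 and Slc3a2 differed between M+NSPCC1 libraries. In Ctrl libraries so did that of Slc2a4 and the sixth gene, Slc48a1 (60.9 ± 2.81). Slc39a10 had 7.28 ± 0.269 FPKM in Ctrl skin, far from the top.

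The comparison of M+NSPCC1 with Ctrl asked how skin with the ageing model and the extract stood against control skin. Of 113 tested, 46 rose and 62 fell and 5 did not pass by edgeR, or 95.6% called, where 93.2% of all tested genes were called (50.1% rose and 43.1% fell). The libraries of 106 carriers did not overlap, where 90% of all tested genes did not. The median log2 fold change was -0.719 over the family and 0.273 over all tested genes. This comparison shares its Ctrl libraries with that of Model, so likeness between their values is no separate result. By class 9 of 15 metal carriers rose and 4 fell (median 1.35), 7 of 10 sugar carriers fell and 2 rose (-1.43), and 15 of 19 mitochondrial carriers fell and 4 rose (-1.0). Of 14 amino acid carriers 7 rose and 7 fell, of 12 organic acid carriers 6 rose and 6 fell, and of 19 ion carriers 6 rose and 12 fell.

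Log2 fold changes over Ctrl, with M+NSPCC1 given before Model, were 4.02 and 4.06 for Slc39a8, 3.05 and 3.40 for Slc7a8, -2.49 and -2.81 for Slc2a4, and -2.0 and -2.32 for Slc25a4. Slc16a3 stood at -2.89 and -3.29, with -3.56 in M+NSPCC1 without its first library. Slc38a2 rose by 0.30 over Ctrl, a call lost with DESeq2's size factors, by DESeq2, and without Ctrl 1, 2 or 3 or M+NSPCC1 1. The carnitine carrier Slc22a5, the branched-chain amino acid carrier Slc25a44, the dicarboxylate carrier Slc13a3 and Slc45a4, Slc8a1 and Slc9a7 (the last 2 a sodium and calcium and a sodium and proton exchanger) fell in M+NSPCC1 and did not pass in Model skin by edgeR. By DESeq2 5 of these 6, all but Slc8a1, passed in Model too. In M+NSPCC1 the call of Slc45a4 was lost with whole-library depth, by limma, and without Ctrl 2 or 3 or M+NSPCC1 1 or 3, and that of Slc9a7 without any 1 Ctrl library or M+NSPCC1 1, 3 or 4. Slc8a1 had no count in any M+NSPCC1 library, and 1 Ctrl library also had none. Its Ctrl mean was 189 times a floor of 3 counts over the M+NSPCC1 group, a ratio that leaves out the spread between libraries. Slc14a1 fell in Model and did not pass in M+NSPCC1 skin. Passing in one comparison and not in the other does not show that the groups differ, and none of these 7 passed in M+NSPCC1 against Model.

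Within the ageing model, the effect of the extract was examined by setting M+NSPCC1 against Model. In edgeR's fit 0 carriers passed after adjustment, and 0% of all tested genes did. At an unadjusted p under 0.05 there were 14 of 113 carriers (12.4%), where 6.57% of all tested genes lay under that value. DESeq2 called 0.95% of all genes and none of the family. The median log2 fold change was -0.0405 over the family and 0.0055 over all tested genes. A nominal 95% interval of the log2 fold change, taken from the normal distribution, lay within a 2-fold change either way for 84 of the 113. It lay within 1.5-fold for 53. Such intervals are narrower than the quasi-likelihood test would give, so both counts are upper limits. In CPM the libraries of the groups did not overlap for 6 of 113 carriers (5.31%), where 4.19% of all tested genes did not overlap. Of the 6, 2 were higher and 4 lower in M+NSPCC1, where 1.3% of all tested genes were wholly higher and 2.89% wholly lower.

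The values nearest to passing were lower in M+NSPCC1 for mitoferrin 1. Slc25a37 had 165, 228, 251 and 218 CPM in M+NSPCC1 and 287, 331, 247 and 326 CPM in Model libraries, which overlap slightly. Its log2 fold change was -0.47 (SE 0.13, unadjusted p = 0.00351 and edgeR adjusted p = 0.456).

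Slc3a2, the heavy chain of the amino acid exchangers, had 400.8, 370.3, 403.6 and 383.1 CPM in M+NSPCC1 and 457.5, 487.6, 404.3 and 512.1 CPM in Model libraries, which do not overlap but nearly touch. In FPKM Slc3a2 overlapped, with at most 121.2 in M+NSPCC1 and at least 116.8 in Model libraries. Its log2 fold change was -0.26 (SE 0.08, unadjusted p = 0.00796 and edgeR adjusted p = 0.568). Slc7a8, its light chain LAT2, had a log2 fold change of -0.35 with no overlap in CPM either (unadjusted p = 0.0502, edgeR adjusted p = 0.758), and Slc7a5 one of 0.11 (SE 0.21). Slc23a3 and the ion carrier Slc4a11 were the other 2 with all M+NSPCC1 libraries lower in CPM, with log2 fold changes of -0.76 and -0.29. In FPKM Slc7a8 overlapped, as did Slc4a11 (at most 3.57 in M+NSPCC1 and at least 3.46 in Model libraries).

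Slc13a3 had 4.86, 4.36, 2.28 and 2.31 CPM in M+NSPCC1 and 21.3, 8.53, 6.55 and 2.8 CPM in Model libraries. Its log2 fold change of -1.50 (SE 0.52, edgeR adjusted p = 0.621) rests on the first Model library, without which it was -0.79.

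On the higher side, Slc37a4 had 5.5, 1.58, 1.55 and 6.04 CPM in M+NSPCC1 and 0, 0, 0 and 1.3 CPM in Model libraries, with no overlap. Its log2 fold change was 3.43 (SE 0.97, unadjusted p = 0.00454 and edgeR adjusted p = 0.486). It was 8.23 without the fourth Model library, which held all the counts of its group, and then depends on the prior count. Slc8a3 had 2.66, 3.06, 3.19 and 2.22 CPM in M+NSPCC1 and 2.18, 0, 0.695 and 1.77 CPM in Model libraries, also with no overlap (log2 fold change 1.25, SE 0.65, edgeR adjusted p = 0.8).

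Phosphate and ion carriers gave some of the other low p-values. Slc20a2, the phosphate carrier PiT2, had 45.4, 102, 134 and 99.5 CPM in M+NSPCC1 and 188, 254, 102 and 186 CPM in Model libraries (log2 fold change -0.94, SE 0.40, unadjusted p = 0.0371 and edgeR adjusted p = 0.699). Slc4a1 had a log2 fold change of -0.74 and did not pass. The summed ion carrier class ran from 372.3 to 432.3 CPM in M+NSPCC1 and from 508.3 to 547.4 CPM in Model libraries. Slc20a2, with a mean of 95.2 CPM in M+NSPCC1 and 182 in Model libraries, made up most of that gap, and no single member passed.

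For carriers with large changes in the ageing model, the fitted differences between M+NSPCC1 and Model were far smaller than those from Ctrl. On the log2 scale M+NSPCC1 stood at -0.04 relative to Model (SE 0.16) for Slc39a8, 0.20 (SE 0.19) for Slc39a10, -0.12 (SE 0.22) for Slc30a1 and -0.28 (SE 0.16) for Slc40a1. The values were -0.03 (SE 0.10) for Slc25a5, 0.32 (SE 0.18) for Slc25a4, 0.32 (SE 0.28) for Slc2a4 and 0.40 (SE 0.52) for Slc16a3. None passed, which does not show that the groups are alike. Skeletal muscle markers summed to 19590 CPM on average in M+NSPCC1 and 13740 in Model libraries.

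**Figure D5:**
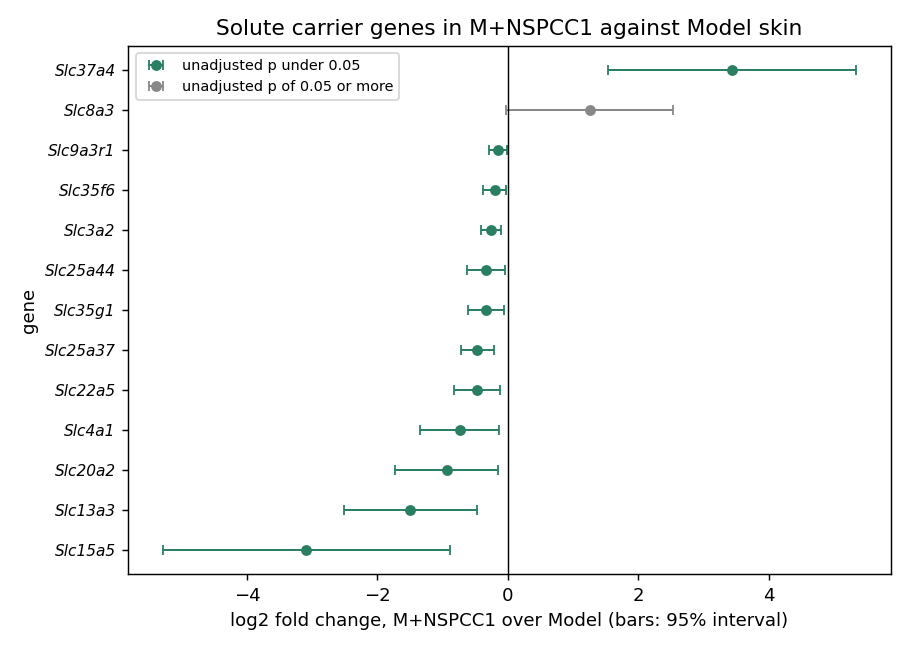
Log2 fold change of M+NSPCC1 over Model (horizontal axis) with its nominal 95% interval, taken from the normal distribution. Shown are 12 of the 14 solute carrier genes with an unadjusted p under 0.05 (green) and Slc8a3 (grey). None passed after adjustment, and 1 of the green genes, Slc37a4, lies above 0. Slc8a1, with no count in any M+NSPCC1 library, is left out because its fitted value depends on the prior count, and 1 more gene is not reported here.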

How the data were processed

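Messenger RNA of 12 mouse skin samples (4 each of M+NSPCC1, Model and Ctrl) was measured by sequencing. Total RNA was extracted with TRIzol and made into libraries with an Optimal Dual-mode mRNA kit, per the labels' protocols. Per the submitters' processing notes, the build was mm10, and DESeq2 1.34.0, RSEM 1.3.1 and HISAT2 2.2.1 were used in roles that they do not give. The deposited tables hold estimated counts and FPKM per transcript, as the authors made them. The transcripts have no names, so strand, multi-mapping reads and isoforms could not be traced, and counts of close paralogs may be split by estimation. No column was left unused.

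The estimated counts were summed by gene ID and rounded to whole numbers. They were tested with edgeR 4.0.16 (R 4.3.3): TMM scaling, filterByExpr, a quasi-likelihood fit on all 12 libraries, and Benjamini-Hochberg adjustment over 7638 genes. Transcripts were tested the same way, over 10171. CPM are counts scaled to the TMM-corrected summed count. FPKM, added up per gene, gave levels per length. Rows of a gene with identical values were added too, which raises the levels of Slc25a1, Slc25a11, Slc2a4 and Slc30a1, and a fit that counts each once was an alternative (103 members called in Model against Ctrl, 0 in M+NSPCC1 against Model and 108 in M+NSPCC1 against Ctrl). DESeq2 1.42.0, limma 3.58.1 on log2(FPKM + 1), DESeq2's size factors, whole-library depth, other filters, a fit of 8 libraries and leaving out each library were the alternatives. The scripts were tested on simulated data. Intervals were taken from the normal distribution and are narrower than the quasi-likelihood test would give. They cover counting and replicate error only. The ratios to a floor of 3 counts set the mean of a group against a group at 0, and replicate error does not enter them.

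The members, classes and gene lists were chosen with earlier results of these data known, and Slc7a6os, Slc4a1ap, Slc9a3r1 and Slc9a3r2 were moved out of the carrier classes after the files were read. The naming rule took, in each class, the 2 largest called rises and falls with a mean of at least 5 CPM in the higher group, the 3 smallest p-values in each direction of M+NSPCC1 against Model, and a fixed set of well-known carriers as far as tested. Other named genes were chosen after their values were seen. Promoter sequences are RefSeq's, on GRCm38.p6, the assembly of mm10. Some genes are not reported here by name.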

Additional observations from a re-analysis of the deposited data

Results flagged for a closer look

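Among 128 groups of 4 libraries of named genes, 14 held a library whose distance from the nearest other one exceeded Dixon's 95% critical share of the group's range. Chance flags about 1 in 20 groups. No cause was tested.

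The third Model library accounted for 5 of these. It had 6.251 CPM of Slc2a5 (2.367 to 2.982 in the other Model libraries), 10.72 of Slc11a1 (2.423 to 3.03), 35.22 of Slc35c2 (23.35 to 25.16), 537.7 of Slc39a10 (959.1 to 987.3) and 471.8 of Slc38a2 (552.9 to 559.8). The same library was the lowest of its group in hair markers and the highest in skeletal muscle, fibroblast and macrophage markers.

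The first M+NSPCC1 library accounted for 4. It had 32.08 CPM of Slc38a4 (20.58 to 22.28 in the other M+NSPCC1 libraries), 592.9 of Slc38a2 (398.9 to 428), 267.1 of Slc39a8 (358.2 to 360.7) and 315.8 of Slc30a1 (499.1 to 526.5).

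The other 5 were single values. The second M+NSPCC1 library had 0 CPM of Slc12a5, against 1.366 to 1.509 in the others. The fourth Model library had 1.305 CPM of Slc37a4, where the others had 0. Ctrl libraries stood apart for Slc41a3 (97.32 CPM in the first, 73.93 to 76.64 in the others), Slc30a1 (82.44 in the third, 92.79 to 94.77) and Slc38a2 (432.2 in the fourth, 347.5 to 360.4).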

How the results depend on the processing

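No called gene of the family changed sign under any alternative run. Called members ran from 91 of 97 tested by limma to 107 by DESeq2 in Model against Ctrl (103 reported). In M+NSPCC1 against Ctrl they ran from 94 of 97 to 112 of 118, both by limma (108 reported). The number tested thus differed between runs. Among members tested in both, no run lost more than 3 of the reported calls. In M+NSPCC1 against Model 0 members were called in every alternative. Over all genes in M+NSPCC1 against Model, where edgeR called 0, DESeq2 called 16 higher and 58 lower, a fit of only the 8 libraries compared 1 higher and 1 lower, and limma on log2(FPKM + 1) without a filter 2 higher. Leaving out one library at a time gave 0 to 1 higher and 0 to 3 lower. Deviations of same-numbered libraries correlated from -0.236 to 0.116, and those of unlike numbers from -0.315 to 0.28. These values cannot show whether the samples were paired. With the replicate block 105 members were called in Model against Ctrl, 0 in M+NSPCC1 against Model and 108 in M+NSPCC1 against Ctrl. By DESeq2 the calls of Slc25a17 and Slc35a4 in Model against Ctrl were lost and those of Slc13a3, Slc22a5, Slc25a44, Slc45a4 and Slc9a7 were gained. The cause was not tested. The median of all genes in Model against Ctrl was 0.255 by TMM, 0.083 by DESeq2's size factors and 0.432 by whole-library depth.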

Other observations

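Of the 119 genes 6 had too few counts to be tested. Slc23a2, which encodes a vitamin C carrier, had 22.4 CPM in the second M+NSPCC1 library, 9.62 CPM in the third Model library and 0 in the other 10 libraries. Slc38a5, a glutamine carrier, had 11.5 CPM in the third Model library and at most 0.825 CPM in every other library. Slc26a11, an anion carrier, had 1.33 and 3.08 CPM in Model libraries 1 and 4 and 0 in all others. Slc7a2, a carrier of basic amino acids, had a summed count that rounds to 0 CPM in all 12 libraries. Slc1a6, a glutamate carrier, had at most 1.01 CPM and Slc26a7, an anion carrier, at most 2.58 CPM in any library.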
